A study of Caenorhabditis elegans with 58 samples.

Results

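The 8 libraries described here, of 58 RNA-seq libraries in all, compare wild-type (WT) Caenorhabditis elegans larvae from mothers of different age. F1-4DOA are the self-progeny laid by WT hermaphrodites on day 4 of adulthood, and F1-1DOA the self-progeny laid on day 1, with 4 libraries in each group. The libraries were chosen by their labels and not by any measured value. Both groups are labelled as wild type in genotype, were kept at 20°C, and were collected as pools of whole animals in the middle of L4, the last larval stage. The study asked how the conditions of the parents, and the H3K4 methyltransferase SET-2, act on descendants. In a second pair, set-2(zr1208) mutant self-progeny were compared across the same maternal ages. In another pair, WT hermaphrodites of the same ages had been mated with young males, and these progeny are called cross 1DOAx4DOA and cross 1DOAx1DOA. Per the methods, such males carried the reporter oyIs14, by which cross-progeny were recognised. Both of these pairs were also kept at 20°C. WT and set-2 larvae grown at 25°C, and WT larvae returned from 25°C to 20°C, entered the shared fit only. The replicates are labelled as biological and came, per the study's methods, from independent experiments.

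At L4 the hermaphrodite is close to 2 switches of adult life. The intestine then starts to make vitellogenins, the yolk proteins that are secreted and taken up by oocytes, and the epidermis changes from the collagens of the larval cuticle to those of the adult one, in step with the last molt. The germ line makes sperm in L4 before it turns to oocytes, so transcripts of sperm, oocyte, molting and cuticle genes depend strongly on the exact hour at which a larva is collected.

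The F1-4DOA libraries held between 10560316 and 14043055 counts and those of F1-1DOA between 8199862 and 22723332, and no pair of libraries within a group agreed within counting noise. Levels are given as CPM, a count scaled to the library total with TMM factors. Markers of muscle (unc-54), intestine (asp-1) and germ line (glh-1) were present in all 8 libraries, with means of 572 ± 117 CPM in F1-4DOA and 626 ± 104 CPM in F1-1DOA for glh-1 (SD, n = 4 each). The 17 male markers with an entry, of which 6 were tested, took 0.00035 to 0.000506% of the counts in F1-4DOA and 0.000463 to 0.000533% in F1-1DOA. Some libraries stood apart, and not only in genes that cycle with the molt. In F1-4DOA replicate 4 the molting list held 0.1% of the counts, against 0.285 to 0.392% in the other F1-4DOA libraries and 0.268 to 0.438% in F1-1DOA. Its furrow and body-shape collagens were also low, at 0.378%, against 0.869 to 1.15% in the other F1-4DOA libraries and 0.704 to 1.51% in F1-1DOA. Its epidermis share was 0.0564%, against 0.126 to 0.140% in the other F1-4DOA libraries and 0.121 to 0.133% in F1-1DOA. For muscle it was 0.777%, against 1.16 to 1.49% and 0.950 to 1.15%. Its pan-neuronal and axon guidance shares were also the lowest of all 8 libraries. Its shares of major sperm proteins (0.603%) and of germline and meiosis genes (0.266%) were the highest of F1-4DOA.

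The response to maternal age was almost wholly an increase. By edgeR's quasi-likelihood test on 15306 genes, 374 (2.44%) were called, that is, had an adjusted p below 0.05 with more than a 2-fold change. Of these, 364 were higher in F1-4DOA (2.38% of the genes) and 10 were lower (0.0653%). At an unadjusted p under 0.05 there were 2125 genes (13.9%), the background for the counts at that p given for lists below. The median log2 fold change of all genes tested was -0.01, and 7345 of the 15306 were on the higher side in F1-4DOA. Among the 364 higher genes the log2 fold change had a median of 1.87 and ran up to 5.1, and 167 exceeded 4-fold. Their median level was 3.27 CPM in F1-1DOA, against 15.3 CPM for all genes tested, and 94 were under 1 CPM there. In F1-4DOA their median level was 12.7 CPM, against 15.8 CPM for all genes tested. Genes chosen for being higher in F1-4DOA are likely to be low in F1-1DOA, so this contrast is partly built in. In 348 of the 364, every F1-4DOA library was above every F1-1DOA library, where 8.79% of all genes tested had groups that did not overlap. The same values selected the 364, so this describes the calls and is no separate support for them. Together the 364 genes took 4.13, 5.32, 6.26 and 5.15% of the counts in the F1-4DOA libraries, against 0.805, 1.14, 1.85 and 1.13% in F1-1DOA. The genes were chosen for this difference, so the shares describe its size only. Within F1-1DOA, replicate 3 was the library with the highest level for 186 of the 364 genes, and replicate 1 the one with the lowest for 196. In whole animals, a higher count may come from more cells of a type or from more RNA in each cell, and these cannot be told apart.

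The number of genes called depended on single libraries. Against 374 with all libraries, it was 112 without F1-1DOA replicate 4, the deepest library, 150 without F1-1DOA replicate 1, 219 without F1-1DOA replicate 2 and 217 without F1-4DOA replicate 3. All 364 higher genes kept a positive fold change in each of the 8 fits that left out 1 library. They were chosen from the same libraries, so this was largely fixed in advance. Of the 364, 95 were called in every one of these fits. The lower calls numbered 54 without F1-4DOA replicate 1, 35 without F1-4DOA replicate 4, the library with low molting genes, 27 without F1-1DOA replicate 3, and 4 without F1-1DOA replicate 4 or F1-4DOA replicate 2.

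**Figure D1:**
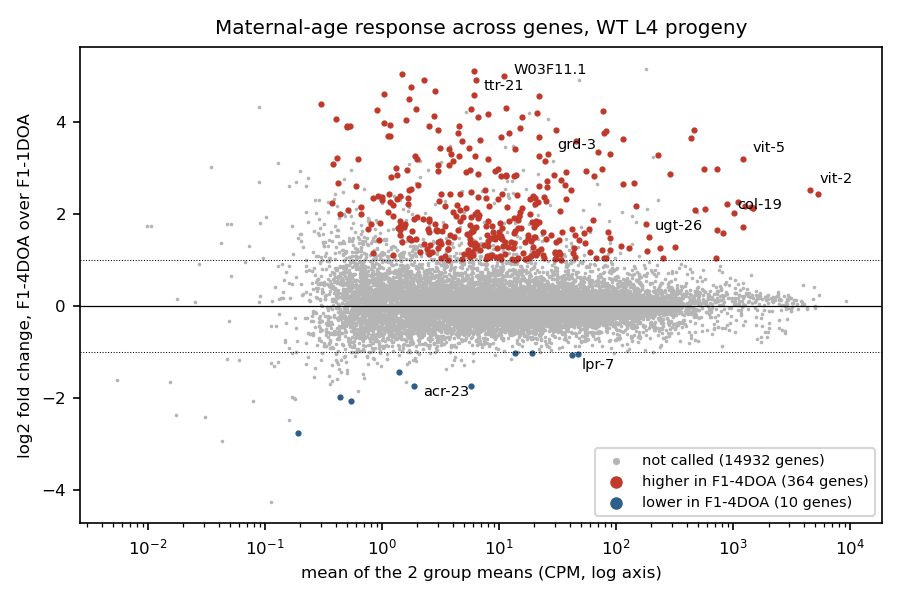
Log2 fold change of F1-4DOA over F1-1DOA (vertical axis) against mean expression in CPM (horizontal log axis) for the 15306 genes tested. Red points are the 364 genes called higher and blue points the 10 called lower in F1-4DOA; dotted lines mark a log2 fold change of 1 in each direction.

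The yolk genes were among the most abundant of the higher genes. All 5 vitellogenin genes tested were called higher, with a median log2 fold change of 2.86, and as a group they took 1.59, 2.01, 2.46 and 1.77% of all counts in F1-4DOA, against 0.159, 0.262, 0.664 and 0.339% in F1-1DOA. vit-2, which encodes a large yolk protein, had 5885, 8232, 10004 and 6955 CPM in the F1-4DOA libraries, against 618, 1000.4, 2512 and 1278 CPM in F1-1DOA. Its groups did not overlap, and its log2 fold change was 2.52 ± 0.55 (SE, edgeR adjusted p = 0.00749). vit-6, the source of the smaller yolk polypeptides, was at 6832, 9379, 11768 and 7750.3 CPM in F1-4DOA and 828, 1216, 3013 and 1590.1 CPM in F1-1DOA. F1-1DOA replicate 3 was the highest of its group for both genes and still below every F1-4DOA library. vit-1 had 1284, 1280.4, 1678 and 912 CPM in F1-4DOA against 112, 174, 232 and 134 CPM in F1-1DOA, a log2 fold change of 2.98 ± 0.47 (edgeR adjusted p = 0.00099). vit-4 averaged 505 ± 105 CPM in F1-4DOA and 69.3 ± 37.2 CPM in F1-1DOA (SD, n = 4 each). vit-5 was at 1968, 2234, 2664 and 1835 CPM in F1-4DOA and spread widely in F1-1DOA, at 36, 183, 479 and 258 CPM, with a log2 fold change of 3.19 ± 0.87 (edgeR adjusted p = 0.0344). The calls of vit-1, vit-4 and vit-6 held without any 1 library. That of vit-2 was lost without F1-1DOA replicate 4 (adjusted p = 0.0515), and that of vit-5 was lost in 5 of the 8 fits without 1 library (edgeR adjusted p up to 0.128) and with library totals (edgeR adjusted p = 0.0528). Genes named vit share much sequence, so some of their reads may have been divided between members.

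Cuticle collagens of the col family held genes that were called higher and a larger number that were not called. Of 128 col genes tested, edgeR called 27 higher (21.1%, against 2.38% of all genes) and none lower. At an unadjusted p under 0.05 there were 61, against 13.9% of all genes. In DESeq2 32 were higher and 0 lower. The median log2 fold change of the 128 was 0.23. That of the 27 was 2.17, which the split by call itself sets apart. The 101 uncalled genes ran from -1.16 to 5.16, and 14 of them had groups that did not overlap. Of the 27, 15 exceeded 500 CPM on average in F1-4DOA. Summed over the 27 genes, expression was 17531, 25500.0, 29258 and 23101 CPM in F1-4DOA, against 4274, 6070.1, 7505 and 5050 CPM in F1-1DOA. The other 101 genes summed to 34936, 38541, 40392 and 22199 CPM in F1-4DOA and to 42638, 50888, 27246 and 33420 CPM in F1-1DOA, so that those groups overlapped. col-19, a collagen gene switched on at the change to the adult cuticle, had 1044, 1558, 1769 and 1503 CPM in F1-4DOA and 186, 248, 501 and 325 CPM in F1-1DOA, a log2 fold change of 2.22 ± 0.50 (edgeR adjusted p = 0.00953). Among the 27, col-124 was one of the abundant ones, at 1771, 2597, 2952 and 2270.0 CPM in F1-4DOA against 414, 559, 732 and 485 CPM in F1-1DOA. It is named here after its values were seen. col-106 rose in the same way, with 1109.7 ± 176 CPM in F1-4DOA and 353 ± 61.6 CPM in F1-1DOA (SD, n = 4 each), and its call was lost without F1-1DOA replicate 4 (edgeR adjusted p = 0.0538). Larger fold changes came from rarer transcripts. col-103 had 145, 119, 137 and 108 CPM in F1-4DOA, against 13.5, 19.1, 6.98 and 10.9 CPM in F1-1DOA, and col-96, beside col-95 on its chromosome, had 27.2, 37.2, 53.6 and 44.7 CPM in F1-4DOA against 4.88, 8.70, 10.6 and 7.44 CPM in F1-1DOA. col-95 averaged 3.43 ± 0.619 CPM in F1-4DOA and was nearly silent in F1-1DOA, at 0.131 ± 0.0763 CPM (log2 fold change 4.77 ± 0.80, edgeR adjusted p = 0.00108).

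The calls of col-95, col-96 and col-103 held without any 1 library, whereas those of col-19 and col-124 were lost without F1-1DOA replicate 1 or replicate 4. The count of col genes called higher was 6 without F1-1DOA replicate 1 and 4 without F1-1DOA replicate 4, and it was 25 without F1-4DOA replicate 4. Of the 4 markers of the adult cuticle, col-19 was the only one called. col-7, also an adult collagen gene and named after its values were seen, had 90.1, 115, 147 and 119 CPM in F1-4DOA and 0.488, 8.46, 46.3 and 19.4 CPM in F1-1DOA. The groups did not overlap, but the F1-1DOA libraries covered a wide range and the adjusted p of its log2 fold change of 2.65 was 0.147 in edgeR. bli-1 and bli-2, collagens of the struts of the adult cuticle, had log2 fold changes of -0.17 ± 0.56 and -0.32 ± 0.35 (SE), and neither was called.

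**Figure D2:**
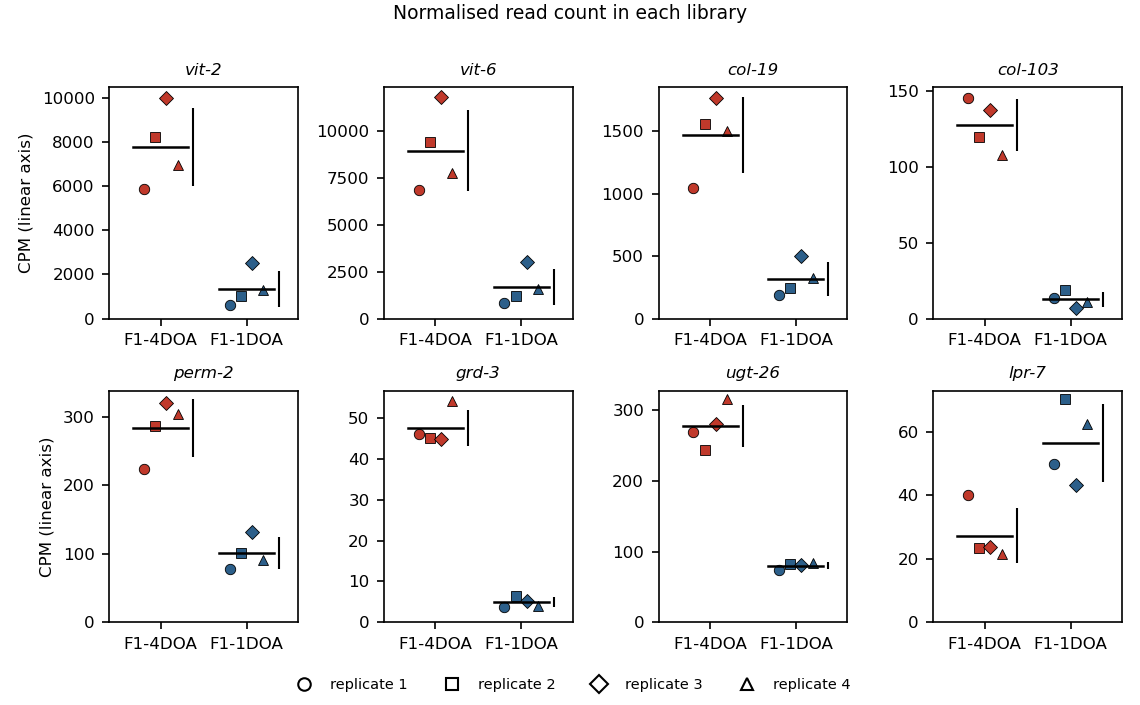
Normalised read count (CPM, linear axis from 0) of 8 genes in each library, F1-4DOA in red and F1-1DOA in blue, with the mean as a horizontal line, the SD as a vertical line and the symbol shape marking the replicate. For all genes shown but lpr-7, each F1-4DOA library lies above each F1-1DOA library; for lpr-7 each lies below.

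No gene of the molting cycle or of the cuticle furrows was called, and these genes differed widely between libraries of the same group. Of 21 molting genes and 15 furrow and body-shape collagens, edgeR called 0, with 4 and 0 at an unadjusted p under 0.05, and DESeq2 also called 0. Their median log2 fold changes were -0.12 and -0.46. mlt-10, a gene required for molting, had 565, 394, 349 and 108 CPM in F1-4DOA, against 741, 578, 479 and 574 CPM in F1-1DOA. dpy-13, a body-shape collagen, was at 2076, 1919, 2052 and 692 CPM in F1-4DOA and 2976, 3177, 1227 and 1932 CPM in F1-1DOA. In both, F1-4DOA replicate 4 was the lowest of all 8 libraries. dpy-7, a furrow collagen, spread widely, with 153, 125, 80.0 and 9.36 CPM in F1-4DOA and 147, 46.2, 29.6 and 79.6 CPM in F1-1DOA. mlt-11, which encodes a protease inhibitor-like molting protein, had 404, 382, 253 and 20.8 CPM in F1-4DOA and 311, 102, 58.1 and 201 CPM in F1-1DOA. Both dpy-7 and mlt-11 were singled out after their values were seen. None of 12 heterochronic genes, which time larval development, was called by edgeR or DESeq2 (1 at an unadjusted p under 0.05). lin-42, a heterochronic gene whose transcript cycles with the molts, had 198, 206, 168 and 30.7 CPM in F1-4DOA and 321, 193, 121 and 178 CPM in F1-1DOA. Without F1-4DOA replicate 4, the counts for the molting, furrow and heterochronic genes were again 0, and 25 col genes and 5 vitellogenins were called higher. Whether the libraries were collected at slightly different times within L4, and what part that has in the yolk and collagen differences, was not tested.

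**Figure D3:**
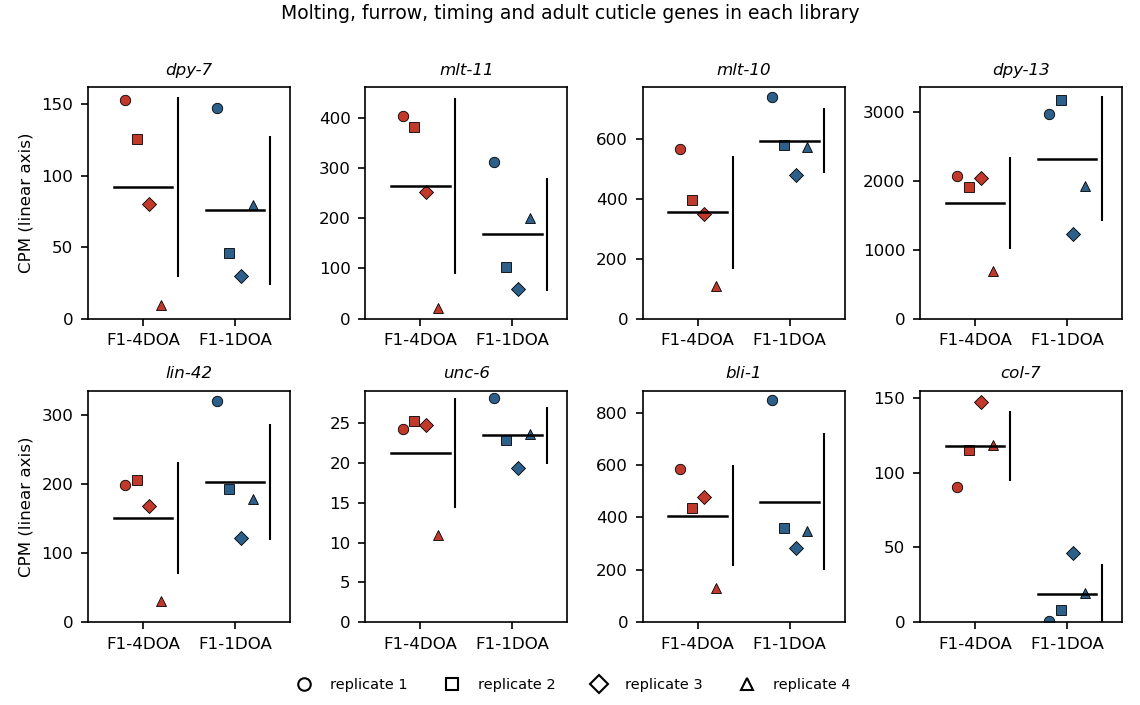
Normalised read count (CPM, linear axes from 0) of 7 molting, furrow, timing and adult cuticle genes and of unc-6, by library (red F1-4DOA, blue F1-1DOA, symbol shape the replicate), with the mean as a horizontal and the SD as a vertical line. F1-4DOA replicate 4 (triangle) is the lowest of its group in every gene but col-7, while in col-7 all F1-4DOA libraries lie above all F1-1DOA libraries.

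Oocyte and eggshell genes were nearly all uncalled, but they lay on one side. All 26 tested were on the higher side in F1-4DOA, against 7345 of all 15306 genes. The median log2 fold change was 0.42, and 2 were called (7.69%, against 2.38% of all genes). perm-2, which encodes a protein of the eggshell permeability barrier, had 224, 286, 320.4 and 304 CPM in F1-4DOA and 77.9, 100.4, 132 and 91.1 CPM in F1-1DOA, a log2 fold change of 1.5 ± 0.33 (edgeR adjusted p = 0.00847). perm-4, of the same layer, averaged 446 ± 63.0 CPM in F1-4DOA and 184 ± 35.9 CPM in F1-1DOA (SD, n = 4 each), a log2 fold change of 1.28 ± 0.30 (edgeR adjusted p = 0.0112). Both calls were lost without F1-1DOA replicate 1 or replicate 4, with adjusted p up to 0.0791. cbd-1, encoding a chitin-binding eggshell protein, had 251, 248, 264 and 368 CPM in F1-4DOA and 188, 208, 224 and 177 CPM in F1-1DOA. Its groups did not overlap, but its log2 fold change of 0.51 ± 0.23 was not called (edgeR adjusted p = 0.308). cpg-2, an eggshell chondroitin proteoglycan gene, averaged 325 ± 86.4 CPM in F1-4DOA and 232 ± 21.1 CPM in F1-1DOA (SD, n = 4 each), with groups that overlapped. F1-4DOA replicate 4 was the highest library for cbd-1 and cpg-2; without it, 23 of the 26 genes were positive and the median was 0.22.

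Sperm and germ-line genes held no calls. Of 30 major sperm protein genes, 48 other sperm genes and 9 nematode-specific peptides of group D, edgeR called 0, with 0, 5 and 1 at an unadjusted p under 0.05, and DESeq2 called 0. Their median log2 fold changes were -0.08, -0.13 and -0.35. msp-36, a major sperm protein gene, had 194, 261, 267 and 565 CPM in F1-4DOA and 263, 353, 323 and 318 CPM in F1-1DOA, with replicate 4 of F1-4DOA the highest of the 8. Without that library the median of the 30 genes was -0.57, still with 0 called. Major sperm protein genes are near-identical copies, and their reads cannot be assigned to single members with certainty. Among 31 germ-line and meiosis genes and 22 cell cycle and DNA replication genes, edgeR and DESeq2 called 0, with 0 at an unadjusted p under 0.05 in either list, and the medians were -0.08 and -0.01. Other nematode-specific peptides had 27 of 30 genes positive, against 7345 of all 15306, and a median of 0.76. Both tools called 0 of them, and 14 were at an unadjusted p under 0.05, against 13.9% of all genes.

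**Figure D4:**
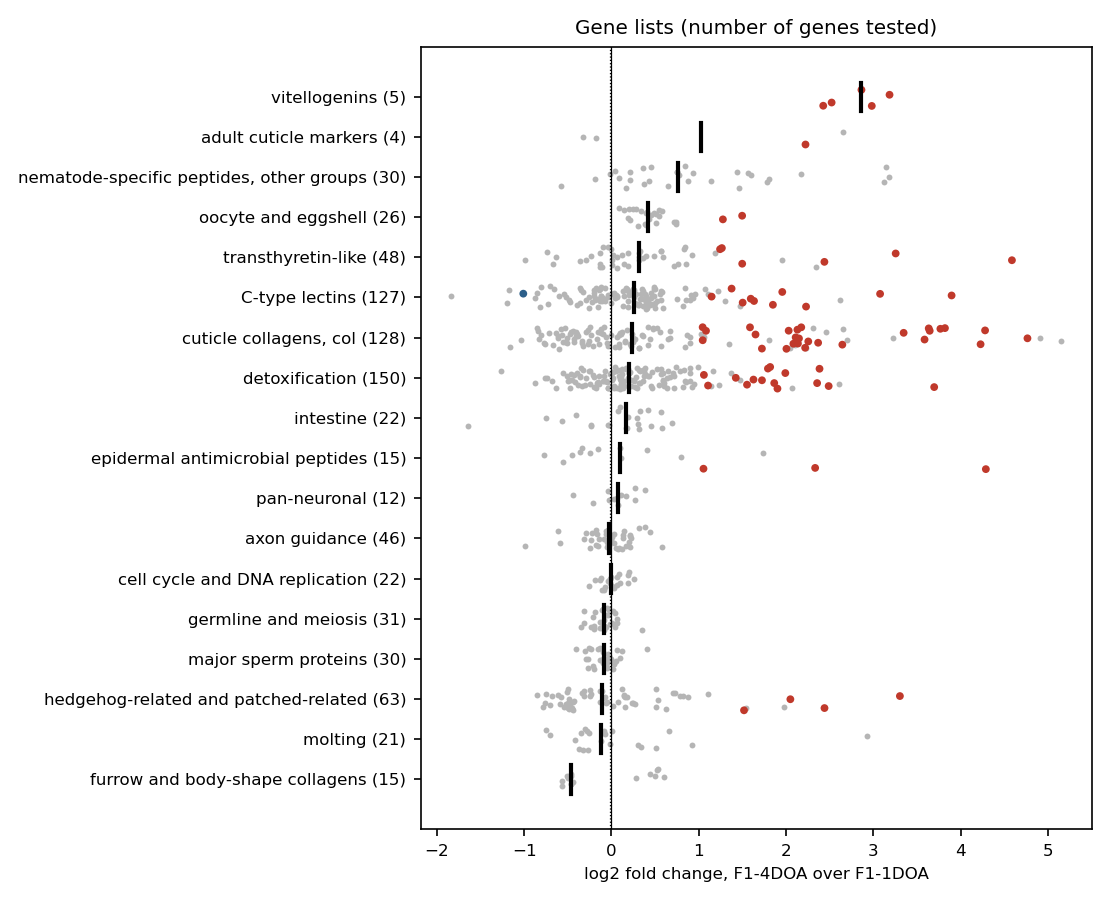
Log2 fold change of F1-4DOA over F1-1DOA (horizontal axis) for the genes of 18 lists, with the number tested in brackets. Each point is a gene, red where called higher and blue where called lower; black bars are list medians and the dotted line is the median of all genes tested. The vitellogenins lie farthest right, at a median of 2.86, and the furrow collagens farthest left, at -0.46.

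Among hedgehog-related and patched-related genes, which encode secreted and membrane proteins of the epidermis and other epithelia, 4 of 63 were called higher (6.35%, against 2.38% of all genes) and the median of the list was -0.11. The count was 2 with library totals or without the filter on low counts, and 0 without F1-1DOA replicate 4. grd-3, grd-10 and grd-13, 3 neighbouring genes of the ground family, were all called. grd-3 had 46.2, 45.3, 44.9 and 54.3 CPM in F1-4DOA and 3.81, 6.50, 5.19 and 4.02 CPM in F1-1DOA, a log2 fold change of 3.30 ± 0.70 (edgeR adjusted p = 0.00647). grd-10 averaged 17.7 ± 1.71 CPM in F1-4DOA against 3.29 ± 0.931 CPM in F1-1DOA, and grd-13 6.43 ± 0.543 CPM in F1-4DOA against 1.62 ± 1.46 CPM in F1-1DOA (SD, n = 4 each). ptr-13, a patched-related gene, had 13.6, 16.4, 19.7 and 11.8 CPM in F1-4DOA and 4.00, 5.15, 6.98 and 5.32 CPM in F1-1DOA. The call of grd-3 was lost without F1-1DOA replicate 4 (edgeR adjusted p = 0.0538), and those of the other 3 in 3 to 7 of the 8 fits without 1 library, with adjusted p up to 0.246.

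Of 15 epidermal antimicrobial peptide genes, 3 were called higher, where 2.38% of all genes were, and the list's median was 0.09. nlp-27 had 60.7, 56.5, 72.7 and 60.2 CPM in F1-4DOA and 8.30, 16.1, 16.3 and 9.29 CPM in F1-1DOA. nlp-28, beside it in the same peptide family, had 5.88, 6.51, 18.1 and 12.7 CPM in F1-4DOA and 0.293, 1.23, 0.755 and 0.216 CPM in F1-1DOA, a log2 fold change of 4.29 ± 1.02 (edgeR adjusted p = 0.0139). cnc-8, a caenacin gene, was only just called, at a log2 fold change of 1.05 ± 0.30 (edgeR adjusted p = 0.0393). Among 116 neuropeptide and insulin genes, with a median of 0.13, nlp-26 was the single call (0.862%), at 21.2, 23.9, 29.5 and 25.1 CPM in F1-4DOA and 1.07, 3.06, 3.30 and 1.99 CPM in F1-1DOA. Transthyretin-like genes, a nematode family of secreted proteins, had 6 of 48 called higher (12.5%) and a median of 0.31. ttr-21 had 9.21, 10.3, 13.5 and 14.1 CPM in F1-4DOA and was nearly absent from F1-1DOA, at 0.195, 0.613, 0.661 and 0.476 CPM (log2 fold change 4.59 ± 0.93, edgeR adjusted p = 0.00483). ttr-29 had 9.60, 5.62, 7.13 and 8.94 CPM in F1-4DOA and 1.37, 0.735, 1.32 and 2.03 CPM in F1-1DOA, and the calls of both ttr genes held without any 1 library. Those of the nlp and cnc genes were lost in 2 to 7 of the 8 fits.

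Detoxification enzymes supplied 15 of the higher genes. The list of 150 tested genes had a median of 0.20, and 10% of it was called, against 2.38% of all genes. The 15 were 8 UDP-glucuronosyltransferases (ugt-2, ugt-11, ugt-13, ugt-26, ugt-31, ugt-32, ugt-53 and ugt-63), 4 cytochromes P450 (cyp-14A1, cyp-33C3, cyp-33C8 and cyp-34A8) and 3 glutathione S-transferases (gst-2, gst-30 and gst-41). UDP-glucuronosyltransferases attach sugars to small molecules and so make them soluble. ugt-31 had 23.1, 28.1, 26.6 and 30.5 CPM in F1-4DOA and 11.3, 11.8, 7.83 and 9.51 CPM in F1-1DOA, a log2 fold change of 1.42 ± 0.20 (edgeR adjusted p = 0.000289). ugt-26 was the more abundant, with 269, 244, 281 and 316 CPM in F1-4DOA against 73.3, 81.7, 81.5 and 83.5 CPM in F1-1DOA, and a log2 fold change of 1.79 ± 0.30 (edgeR adjusted p = 0.00108). These libraries were alike within each group. cyp-14A1 was at 3.99 ± 0.903 CPM in F1-4DOA and 1.03 ± 0.210 CPM in F1-1DOA (SD, n = 4 each), and ugt-11 at 9.64 ± 2.86 CPM in F1-4DOA and 1.74 ± 0.724 CPM in F1-1DOA. All 4 calls held without any 1 library, and the list had 10 to 15 genes called higher in those fits.

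C-type lectins, many of them induced by microbes, had 10 of 127 genes called higher (7.87%, against 2.38% of all genes), 1 called lower (0.0653% of all genes) and a median of 0.25. clec-265 had 67.7, 61.3, 102 and 88.1 CPM in F1-4DOA and 29.7, 32.6, 20.5 and 23.1 CPM in F1-1DOA, and clec-218 54.6, 48.6, 69.3 and 62.6 CPM in F1-4DOA and 21.8, 28.4, 31.5 and 24.5 CPM in F1-1DOA. The lower one, clec-206, had 7.74, 6.33, 12.9 and 9.45 CPM in F1-4DOA and 9.77, 9.31, 25.1 and 28.6 CPM in F1-1DOA, so its groups overlapped. The call of clec-218 was lost in 2 of the 8 fits without 1 library (edgeR adjusted p up to 0.062). Without F1-1DOA replicate 4, 2 lectin genes were called higher and 0 lower. Of 23 genes that respond to insulin signalling, dod-23 alone was called (4.35%). It had 22.7, 22.6, 47.4 and 25.4 CPM in F1-4DOA against 6.45, 10.9, 14.6 and 9.94 CPM in F1-1DOA. Of 22 heat shock and chaperone genes the single call (4.55%) was hsp-43, a small heat shock protein gene. It had 60.5 ± 2.71 CPM in F1-4DOA and 29 ± 3.86 CPM in F1-1DOA (SD, n = 4 each). Its call was lost in 7 of the 8 fits without 1 library. spp-24, listed as F23F1.7, was the only call of 31 lysozyme and saposin-like genes (3.23%), with a log2 fold change of 1.55 ± 0.41. That call was lost in 5 of the 8 fits (edgeR adjusted p up to 0.128). Of 213 F-box, MATH and BTB genes 4 were called (1.88%), with a median of -0.0026, and of 161 nuclear hormone receptors 2 (1.24%), with a median of 0.12, where 2.38% of all genes were called higher. fbxa-74 had 32.4 ± 5.05 CPM in F1-4DOA and 15.1 ± 1.65 CPM in F1-1DOA, and nhr-7 9.01 ± 2.22 CPM in F1-4DOA and 2.82 ± 0.822 CPM in F1-1DOA (SD, n = 4 each).

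Of the 364 higher genes, 282 were in none of the lists. aqp-8, an aquaporin water channel gene, had 45, 52.7, 90.0 and 61.5 CPM in F1-4DOA and 10.9, 13.8, 6.23 and 9.51 CPM in F1-1DOA, a log2 fold change of 2.63 ± 0.42 (edgeR adjusted p = 0.00105). nhx-1, a sodium-proton exchanger gene, was at 8.15 ± 1.18 CPM in F1-4DOA against 3.02 ± 0.473 CPM in F1-1DOA (SD, n = 4 each). glc-2, which encodes a subunit of a glutamate-gated chloride channel, had 12.2, 14.7, 16.4 and 10.4 CPM in F1-4DOA and 4.69, 3.80, 4.81 and 4.32 CPM in F1-1DOA. pqn-60, named for a glutamine- and asparagine-rich domain, had 6.37, 9.01, 8.92 and 11.4 CPM in F1-4DOA and 0.781, 0.980, 0.566 and 0.692 CPM in F1-1DOA (log2 fold change 3.58 ± 0.54, edgeR adjusted p = 0.000569). ZK228.3 averaged 32.5 ± 5.19 CPM in F1-4DOA and 6.20 ± 0.772 CPM in F1-1DOA, T01G5.1 27.8 ± 3.44 CPM in F1-4DOA and 11.3 ± 2.71 CPM in F1-1DOA, and Y48A6B.7 36.5 ± 2.26 CPM in F1-4DOA and 13.3 ± 2.72 CPM in F1-1DOA (SD, n = 4 each). All 7 of these calls held without any 1 library, and all 7 groups were free of overlap. cal-5, a calmodulin-like gene named after its values were seen, averaged 40.1 ± 3.75 CPM in F1-4DOA and 19.9 ± 1.54 CPM in F1-1DOA, and its log2 fold change of 1.01 was just past the limit. Its call was lost in 6 of the 8 fits without 1 library, where the log2 fold change ran from 0.92 to 1.04. Of the largest fold changes, C10G8.4 had 12.9, 8.03, 7.45 and 20.9 CPM in F1-4DOA and 0.195, 0.613, 0.661 and 0.259 CPM in F1-1DOA. Its call was lost without F1-1DOA replicate 1 or replicate 4 (edgeR adjusted p up to 0.1).

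The 10 genes called lower had a median of 1.77 CPM in F1-4DOA and 5.89 CPM in F1-1DOA. acr-23, a receptor subunit gene of the acetylcholine receptor family that responds to betaine, had 1.67, 0.624, 0.465 and 0.681 CPM in F1-4DOA and 3.32, 4.17, 1.79 and 2.25 CPM in F1-1DOA (log2 fold change -1.74 ± 0.39, edgeR adjusted p = 0.00821). lpr-7, a lipocalin-related gene, had 40.2, 23.5, 23.7 and 21.5 CPM in F1-4DOA against 49.9, 70.5, 43.3 and 62.5 CPM in F1-1DOA. F35E12.5, also called irg-5 and known from infection responses, had 33.8, 30.1, 23.1 and 37.5 CPM in F1-4DOA and 48.8, 59.7, 57.8 and 88.8 CPM in F1-1DOA. F36D1.8 averaged 2.67 ± 1.38 CPM in F1-4DOA and 8.89 ± 2.50 CPM in F1-1DOA, and klf-2, a Krüppel-like factor gene, 0.731 ± 0.443 CPM in F1-4DOA and 2.06 ± 0.627 CPM in F1-1DOA (SD, n = 4 each). C13A2.3 and K02B7.3 were near the limit of detection, with 2, 1, 4 and 2 counts in F1-4DOA against 9, 12, 7 and 13 in F1-1DOA for C13A2.3, and 1, 0, 1 and 0 counts in F1-4DOA against 5, 2, 3 and 8 in F1-1DOA for K02B7.3. With the entries of each gene summed, the log2 fold change of K02B7.3 was -0.60 in place of -2.75 and was not called (edgeR adjusted p = 0.147), and DESeq2 did not call it either (adjusted p = 0.116). The call of acr-23 held without any 1 library (edgeR adjusted p up to 0.0497). Those of lpr-7, klf-2, F35E12.5, F36D1.8, C13A2.3, K02B7.3 and clec-206 were each lost in at least 1 such fit. The remaining 2 called genes were transcript entries matched to D2024.4 and zip-8.

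Among tissue lists, edgeR called 0 of 13 muscle, 22 intestine, 7 epidermis, 12 pan-neuronal and 19 vulva and somatic gonad genes, with 3, 6, 0, 0 and 2 at an unadjusted p under 0.05, and DESeq2 called 0. The medians were 0.28, 0.17, -0.36, 0.07 and 0.01. Over all genes tested, 13.9% were at an unadjusted p under 0.05. Of 46 axon guidance genes, edgeR called 0 (4 at an unadjusted p under 0.05), but zig-3 lay at the limit and was called lower in 12 of 18 alternatives, among them DESeq2, library totals and 4 of the 8 fits without 1 library. This gene encodes a secreted immunoglobulin-domain protein that keeps axons in place, and is named after its values were seen. It had 26.2, 12.5, 13.2 and 7.83 CPM in F1-4DOA and 21.1, 28.6, 31.0 and 37.4 CPM in F1-1DOA, with groups that overlapped through F1-4DOA replicate 1. Its log2 fold change of -0.99 ± 0.26 stopped just short of the limit (edgeR adjusted p = 0.0225). Of the 12 alternatives that called zig-3, 1 only dropped the fold limit, so its outcome was fixed. Others moved the estimate slightly, for example to -1.01 in DESeq2. They reuse the same libraries and are no separate support. unc-6, which encodes netrin, had 24.3, 25.3, 24.7 and 11 CPM in F1-4DOA and 28.1, 22.9, 19.3 and 23.6 CPM in F1-1DOA, with F1-4DOA replicate 4 the low one. Of 14 H3K4 methylation genes and 53 small RNA and H3K9 methylation genes, both tools called 0, with 0 and 1 at an unadjusted p under 0.05. ash-2, of the H3K4 methyltransferase complex, averaged 40.5 ± 3.03 CPM in F1-4DOA and 43.2 ± 5.83 CPM in F1-1DOA, the demethylase gene rbr-2 64.6 ± 9.52 CPM in F1-4DOA and 73.5 ± 14.2 CPM in F1-1DOA, and the methyltransferase gene set-16 78.8 ± 29.5 CPM in F1-4DOA and 70.7 ± 11.3 CPM in F1-1DOA (SD, n = 4 each). hrde-1, a nuclear Argonaute gene of inherited RNA interference, was at 207 ± 24.6 CPM in F1-4DOA and 212 ± 34.5 CPM in F1-1DOA. Of 72 ribosomal protein genes and 37 histone genes, both tools called 0 (0 and 3 at an unadjusted p under 0.05).

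The share of genes called higher varied between the chromosomes of the reference assembly WBcel235, which was not tested. Chromosome V held 117 of them, or 3.95% of its 2960 tested genes, and X held 72 (3.50%). The shares were 2.48% on IV, 1.84% on II, 1.43% on III and 1.13% on I. Of 350 higher genes with a place in the reference, 57 (16.3%) lay directly beside another in the order of protein-coding genes. No such share was computed for other sets of genes, so this count does not show clustering. The runs included grd-13, grd-3 and grd-10, and the pairs col-95 with col-96, col-92 with col-93 and clec-222 with clec-223.

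The same maternal ages were compared in progeny of other parents, which were part of the same fit. In set-2 self-progeny the 364 genes had a median log2 fold change of 0.16, against 0.05 for all genes tested. There, 13 of them were called higher and 0 lower, where 5.98% of all genes were called, 1.61% higher and 4.37% lower. In cross-progeny the median was -0.03, against 0.0047 for all genes, and edgeR called 0 of the 364. Over all genes, the cross-progeny comparison had 0 higher and 10 lower calls in edgeR, with 1072 genes at an unadjusted p under 0.05, and DESeq2 called 4 higher and 27 lower. The 5 vitellogenins had medians of 0.14 in set-2 and 0.20 in cross-progeny, and the 27 col genes -0.35 and 0.16. vit-2 stood at 1648 ± 1107 CPM in set-2 F1-4DOA and 1733 ± 980.2 CPM in set-2 F1-1DOA, and at 3185 ± 1210.1 CPM in cross 1DOAx4DOA and 2994 ± 1246 CPM in cross 1DOAx1DOA (SD, n = 4 each). For col-19 the means were 592 ± 469.6 CPM in set-2 F1-4DOA and 714 ± 424 CPM in set-2 F1-1DOA, and 862 ± 304 CPM in cross 1DOAx4DOA and 788 ± 292 CPM in cross 1DOAx1DOA. cross 1DOAx1DOA thus had a higher mean for both genes than F1-1DOA. grd-3 had 13.1 ± 9.23 CPM in set-2 F1-4DOA and 15.2 ± 10.5 CPM in set-2 F1-1DOA, and 12.1 ± 13.5 CPM in cross 1DOAx4DOA and 8.08 ± 6.01 CPM in cross 1DOAx1DOA.

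**Figure D5:**
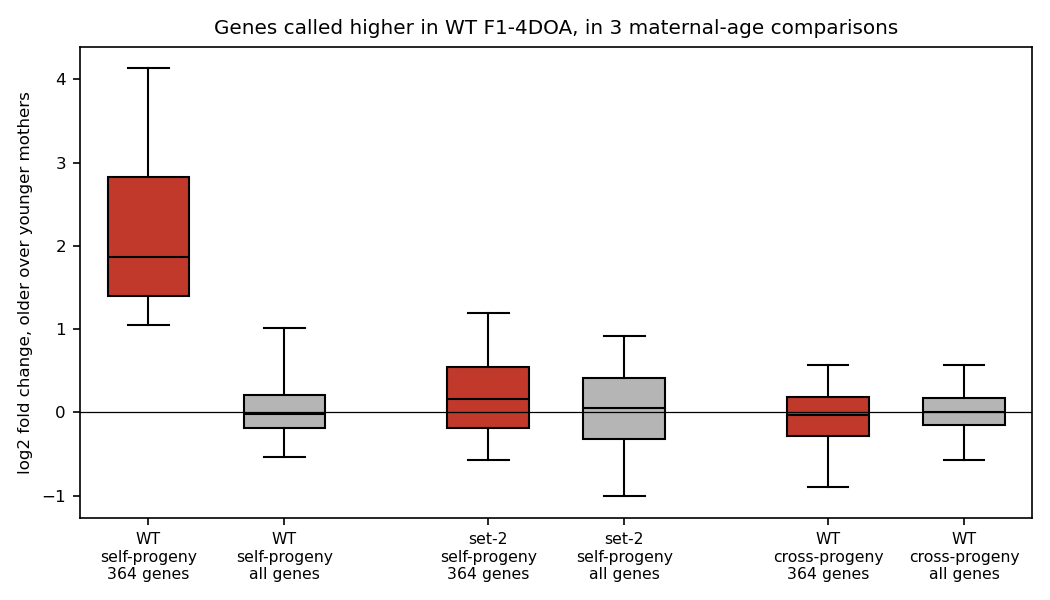
Log2 fold change of older over younger mothers (vertical axis) for the 364 genes called higher in WT F1-4DOA (red) and for all 15306 genes tested (grey), in WT self-progeny, set-2 self-progeny and WT cross-progeny. Boxes are quartiles with the median, and whiskers reach the 5th and 95th percentiles; the first red box is high because those values chose the genes, and the red medians in the other pairs are 0.16 and -0.03.

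The difference between the effects was tested with interaction terms, which cover all genes. Depth was uneven among the set-2 F1-4DOA libraries, which held between 2819460 and 31543107 counts. The WT effect differed from that in set-2 for 187 genes, 1.22% of those tested, with 173 more positive (1.13%) and 14 more negative (0.0915%) in WT. Of these 173, 45 were among the 364, and 115 were not called in WT but fell with maternal age in set-2. The oocyte and eggshell list held 16 of the 173 and the major sperm proteins 14; in set-2 itself, 12 and 29 genes of these lists were called lower. For perm-2 the difference was 2.14 and for perm-4 1.89 on the log2 scale (edgeR adjusted p = 0.0191 and 0.0217). The vitellogenins did not pass, for example vit-2 at 2.59 (edgeR adjusted p = 0.0682). Against cross-progeny, 89 genes differed, 0.581% of those tested, 82 of them more positive (0.536%) and 7 more negative (0.0457%) in self-progeny, and 57 of the 82 were among the 364. They included vit-1, at 2.77 (edgeR adjusted p = 0.0341), and ugt-31, ugt-26, glc-2, aqp-8 and nhx-1. vit-2, at 2.43, did not pass (adjusted p = 0.128). The WT effect and both interactions share the same 8 WT libraries, so these overlaps with the 364 are partly built in. The interaction counts rest on single libraries: without 1 of the libraries involved they ran from 40 to 1219 for set-2 and from 8 to 204 for the crosses. The lowest came without set-2 F1-4DOA replicate 4 and without F1-1DOA replicate 4, and the highest without set-2 F1-4DOA replicate 2 and without F1-4DOA replicate 1.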

How the data were processed

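RNA from pools of whole animals was made into unstranded libraries (TruSeq v2), so reads of a gene and of an antisense or overlapping partner cannot be told apart. The authors deposited raw counts per gene or transcript entry, made with HTSeq on build ce10, per the submitters' notes. From these counts, 36 libraries of 9 groups were fitted together with edgeR 4.0.16 (R 4.3.3) by its quasi-likelihood test. TMM factors and a filter on low counts by group were used. The groups grown at 25°C or returned from it were part of this fit and so of its estimate of the spread. Calls needed an adjusted p (Benjamini-Hochberg) below 0.05 together with a log2 fold change past 1 in size. Differences between effects were interaction terms. The SE of a log2 fold change was derived, as its size divided by the square root of the F statistic of the test. Of 45410 entries, 43891 matched a gene of WBcel235, used for names and gene order only. Total counts were 8199862 to 22723332 in the 8 libraries. Counts were also simulated for this comparison, with 15186 genes. In these, 56% of 2-fold, 98% of 4-fold and 100% of 8-fold higher genes and 94% of 0.25-fold genes were called. The changed genes were drawn only from those with a mean of at least 50 counts over the 36 libraries. The rates therefore do not give the recovery of scarcer genes. A 2-fold change lies at the limit for a call. Of the 364 genes called higher in the real data, 94 were under 1 CPM in F1-1DOA.

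Named genes were the called genes without overlap of smallest adjusted p (up to 15 in each direction), the 5 of largest fold change in each direction, up to 4 called and the 3 most abundant members of each list, all calls of a direction with 15 or fewer, and the study's genes; exceptions are named as such. Members and lists were chosen with earlier results of these data known. Alternatives were DESeq2 1.42.0, other scalings and filters, a replicate block and leaving out each library. Promoter motifs and the other 22 libraries of the series were not analysed here.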

Additional observations from a re-analysis of the deposited data

Results flagged for a closer look

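In 14 of 172 sets of 4 libraries examined, 1 library lay far from the other 3 of its group by the gap it left relative to the whole range; chance alone gives such a gap in about 1 set of 20. F1-4DOA replicate 4 accounted for 5 of the 14. It stood high for cbd-1 (368 CPM), grd-3 (54.3 CPM) and the share of counts in major sperm proteins (0.603%), and low for dpy-13 (692 CPM) and unc-6 (11 CPM). F1-4DOA replicate 3 stood high for cnc-8 (46.1 CPM), dod-23 (47.4 CPM) and nhr-53 (7.13 CPM), replicate 2 low for Y48A6B.7 (33.1 CPM) and replicate 1 high for lpr-7 (40.2 CPM). In F1-1DOA, replicate 1 stood high for bli-1 (848 CPM), replicate 2 for C27B7.9 (0.613 CPM) and col-95 (0.245 CPM), and replicate 3 for fbxa-74 (17.6 CPM). What sets these libraries apart was not tested.

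The maternal-age effect in WT self-progeny differed from that in set-2 self-progeny for 187 genes and from that in cross-progeny for 89 genes, by the interaction terms of edgeR. For the genes named here the differences follow, on the log2 scale and as the WT self-progeny effect minus the other. Against set-2, they were 5.58 for ttr-21, 4.72 for col-95, 3.32 for pqn-60, 2.62 for ttr-29, 2.40 for ugt-11, 2.21 for cpg-2, 2.14 for perm-2, 2.08 for F10C1.9, 2.07 for col-106 and 1.89 for perm-4. Smaller ones were 1.78 for cyp-14A1, 1.6 for Y48A6B.7, 1.6 for cbd-1, 1.59 for dod-23, 1.54 for msp-36, 1.34 for nhx-1 and 1.22 for ugt-31, and that of acr-23 was -2.36. Neither cpg-2, cbd-1 nor msp-36 was called in WT itself.

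Against cross-progeny, they were 6.35 for C27B7.9, 6.07 for nlp-28, 5.92 for ttr-21, 4.30 for col-95, 3.27 for pqn-60, 2.84 for ugt-11, 2.77 for vit-1, 2.59 for aqp-8, 2.34 for nhr-53, 2.33 for ZK228.3 and 2.07 for ugt-26. Smaller ones were 1.89 for cyp-14A1, 1.87 for F10C1.9, 1.84 for dod-23, 1.66 for ugt-31, 1.62 for glc-2, 1.59 for Y48A6B.7, 1.59 for nhx-1, 1.55 for fbxa-74 and 1.15 for T01G5.1. Those of lpr-7, zig-3 and C13A2.3 were -1.45, -1.97 and -3.36. F10C1.9 and zig-3 were chosen after their values were seen, and the fold changes of C27B7.9 and C13A2.3 rest on few counts.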

How the results depend on the processing

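The count of genes called between F1-4DOA and F1-1DOA was 439 with DESeq2, 281 with library totals, which shifted the median of all genes to -0.0995 (log2), and 225 (219 higher, 6 lower) at a mean of at least 50 counts. With the 2 groups fitted alone it was 413, with 6 lower, and without a fold threshold 29 were lower. Without 1 library it ran from 112 to 418, from 108 to 364 higher and from 4 to 54 lower.

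The set-2 difference held 493 genes (422 higher, 71 lower) with DESeq2, 115 higher with library totals, 119 (109 higher) at 50 counts and 46 (46 higher, 0 lower) with the groups compared alone. Without 1 library it ran from 40 to 1219, from 40 to 853 higher and from 0 to 366 lower. The cross difference held 246 genes (216 higher, 30 lower) with DESeq2, 51 (45 higher) without the filter, 44 (40 higher, 4 lower) at 50 counts and 167 (149 higher, 18 lower) with the groups compared alone. Without 1 library it ran from 8 to 204, from 4 to 122 higher and from 4 to 82 lower. The causes were not tested. No called gene whose levels are given per library or as group means changed direction under the alternatives run. Their selection from the same libraries makes this likely. Uncalled ones such as bli-1 did change direction without single libraries.

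The groups share replicate numbers, and the labels do not say whether these mark a shared experiment. Deviations of same-numbered libraries of F1-4DOA and F1-1DOA correlated at 0.293, -0.007, 0.012 and 0.288. For F1-1DOA and cross 1DOAx1DOA the values were 0.316, -0.03, 0.233 and 0.107, and for F1-4DOA and set-2 F1-4DOA 0.204, -0.271, -0.239 and -0.184. Such mixed values do not decide the question, and the numbers were not taken to pair libraries in the main fit. With a replicate block, 333 genes were called (324 higher, 9 lower), 197 for the set-2 difference and 46 (41 higher) for the cross difference; vit-5 was not called with the block (edgeR adjusted p = 0.0575), and 2 hedgehog-related and patched-related genes were. Scarce genes limit the precision: 94 of the 364 higher genes were under 1 CPM in F1-1DOA.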

Other observations

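Some higher genes in no list shared a family name; these families were picked after their values were seen and were not tested as sets. All 16 fipr genes tested, which encode small secreted peptides, were on the higher side in F1-4DOA, the median log2 fold change being 2.73, and 5 were called (fipr-1, fipr-2, fipr-5, fipr-9 and fipr-13). All 5 ule genes, named for uterine lumen-expressed proteins, were positive, with a median of 2.66 and 3 called. Of 11 pgp genes, which encode P-glycoprotein transporters, 3 were called higher and the median was 0.94. Of 7 irg genes, named for their response to infection, 2 were called higher and 1, irg-5 (F35E12.5), was called lower. Over all genes tested the median was -0.01, and 7345 of 15306 were on the higher side. Of all genes, 2.38% were called higher and 0.0653% lower.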
